A study of Gallus gallus with 8 samples.

Results

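In chicken liver, 4234 genomic regions carried a Nrf2 CUT&Tag peak in all 4 HT samples and in none of the 4 PT samples. Every HT list held more peaks than any PT list. With each list cut to its 5120 highest-scoring peaks, there were 1707 such regions. The regions were chosen from the peak lists themselves. Peaks of the 8 deposited lists, 1 list per sample, were pooled. Overlapping or touching peaks were joined, which left 30246 regions. A region was kept when at least 1 bp of peak lay in it in every HT list and no base of peak in any PT list. The kept regions made up 14% of all merged regions. They are called HT-only regions here. Because their presence in HT and absence from PT fixed the choice, that contrast is no finding, and the values below are descriptions with no test of HT against PT. Width, score rank and shared peak ends are also linked to the rule. Wide, high-scoring or matching peaks are more readily found in every list. Regions that also held a PT peak were left out, and in the HT lists these were most frequent among the highest-scoring peaks.

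Nrf2 is a transcription factor that pairs with small Maf proteins and binds antioxidant response elements near genes of glutathione synthesis, detoxification and iron handling. In unstressed cells the adaptor Keap1 marks it for breakdown, and oxidative or electrophilic stress lets it build up in the nucleus. The liver relies on these genes because it handles foreign compounds and carries a high oxidative load. CUT&Tag uses an antibody against the factor to bring a transposase to chromatin, so that DNA next to the bound protein is cut and tagged for sequencing.

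The birds were broilers (Gallus gallus), and the tissue was liver. HT samples are labelled as high temperature. The PT labels contradict each other, since the treatment field names phloretin, the description calls the samples normal and the protocol gives high temperature, as it does for HT. PT therefore stands here for its label alone. The labels used here are silent on strain, age, sex, the number of birds behind a sample and whether samples came from different birds. The spread between lists may therefore be technical. Peak lists hold no expression values, so the tissue could not be checked against marker genes. They also hold no read counts, so the depth behind a peak is unknown.

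The HT lists held 9437 to 11141 peaks and the PT lists 5120 to 7302. Each HT list put 4245 to 4253 peaks into the HT-only regions. That was 45.05% of the peaks of HT list 3, 43.2% of HT list 1, 39.6% of HT list 2 and 38.2% of HT list 4, so the share was lower in the longer lists. In bases, the regions took 34.3% to 38.7% of an HT list, or 2.22 ± 0.0168 Mb (SD, n = 4 lists). No region is given with its sequence or with genes, because no genome or annotation of galGal6, the build named in the submitters' processing notes, was used here. All positions are in galGal6.

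The regions lay on every chromosome with peaks, but not at one density. Chromosomes 1 to 5 held 1791 HT-only regions, or 2.94 per Mb of the length up to each chromosome's last peak. Chromosomes 6 to 10 held 463, or 3.12 per Mb. The microchromosomes and other small chromosomes, 11 to 33, held 1180, or 5.85 per Mb. These small chromosomes are rich in genes in birds. Set against all merged regions of the same chromosomes, the HT-only share was 11.7% on chromosomes 1 to 5, 12.4% on 6 to 10, 16.9% on 11 to 33, 19% on Z, 19.5% on scaffolds and 6.87% on W.

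Density was uneven within the small chromosomes. Chromosome 33 held 136 regions at 17.4 per Mb, chromosome 32 held 11 at 15.5 per Mb and chromosome 30 held 24 at 13.3 per Mb. Chromosome 25 followed with 11.3 per Mb and chromosome 28 with 10.4 per Mb. At the low end, chromosome 11 had 67 regions at 3.32 per Mb, a density within the range of chromosomes 6 to 10, which ran from 2.59 on chromosome 7 to 3.63 on chromosome 6. Among chromosomes 1 to 5 the range was narrow, from 2.66 per Mb on chromosome 4 to 3.13 on chromosome 1.

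Density and share of regions did not follow the same order. Chromosome 32 had the highest share of HT-only regions, 11 of its 46 regions (23.9%), and chromosome 21 the next, 41 of 182 (22.5%), at an intermediate density of 5.99 per Mb. On chromosome 33 the share was 20.1%, of 675 regions. Of the 5368 regions held by all 4 HT lists, 4234 had no PT peak. The share without a PT peak was 83.9% on chromosomes 1 to 5 and 79.5% on 11 to 33. On chromosome 21 it was 95.3%, or 41 of 43. It was 94.6% on chromosome 17 (53 of 56), 93.75% on chromosome 24 (30 of 32) and 66.0% on chromosome 33 (136 of 206). Among the numbered chromosomes it was lowest on 16 (23 of 36, 63.9%) and 30 (24 of 37, 64.9%). On W it was 34.6%, or 9 of 26.

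**Figure D1:**
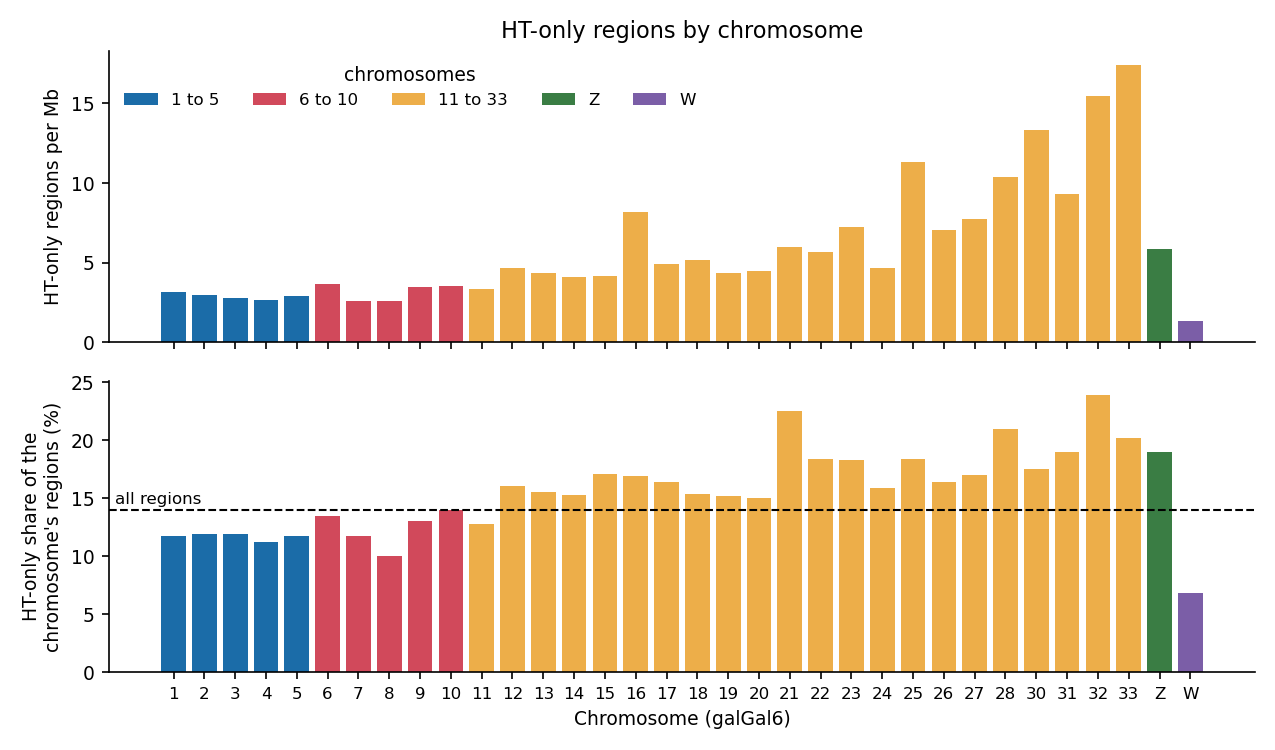
HT-only regions by chromosome, as regions per Mb up to the last peak (upper bars) and as a percent of all merged regions of the chromosome (lower bars), with the 14% over all regions as a dashed line. Densities stay between 2.59 and 3.63 per Mb on chromosomes 1 to 10 and reach 17.4 per Mb on chromosome 33, while W stands at 1.34 per Mb.

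Z carried 483 HT-only regions, and the far end of the chromosome was packed. Beyond 70 Mb, 236 regions lay within 12.5 Mb, or 18.8 per Mb, against 247 regions or 3.53 per Mb before it. The median gap to the nearest HT-only region was 12.0 kb beyond 70 Mb and 77.8 kb before it. Regions of the far end were also wider, with a median of 716.5 bp against 538 bp, and fewer had the same peak ends in all 4 HT lists, 20.8% against 51.8%. As a share of all regions there, the parts were closer, at 21.1% and 17.3%. W carried 9 HT-only regions, 4 of them with the same ends in all 4 lists. The highest-ranked was chrW:3885241-3885770, with scores of 91.41, 73.97, 87.59 and 91.41 in HT lists 1 to 4.

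Counted in windows of 1 Mb, 986 of 1067 windows held at least 1 HT-only region. The mean was 3.68 per window. In 49 windows there were 10 or more, and these held 780 regions, or 19.9% of those on chromosomes. The 5 fullest windows were all on Z. These windows also held many merged regions of any kind. The window from 75 to 76 Mb held 41 HT-only regions among 181 merged ones, and that from 74 to 75 Mb 39 among 156. From 77 to 78 Mb there were 38 among 142, from 76 to 77 Mb 33 among 164 and from 80 to 81 Mb 30 among 132. PT-only regions, those in all 4 PT lists and no HT list, numbered 4 to 14 in the same windows. Next came 3 windows of chromosome 33 with 27 among 126, 22 among 113 and 21 among 81 merged regions. Of the windows that follow, the first Mb of chromosome 28 held 15 HT-only regions among 40 and no PT-only region. The window of chromosome 1 from 76 to 77 Mb held 14 HT-only and 21 PT-only regions among 58.

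The longest stretch between neighbouring HT-only regions ran over 3.14 Mb on chromosome 2, chr2:17544223-20684457, and it was not empty of peaks. It contained 61 merged regions, of which 4 were PT-only. A stretch of 2.97 Mb on chromosome 5, chr5:47114591-50085249, contained 59 regions with 6 PT-only ones. On chromosome 4, the 2.26 Mb of chr4:61937274-64201749 contained 28 regions and no PT-only region.

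HT-only regions were mostly far from each other. The gap to the nearest other HT-only region had a median of 57.5 kb (quartiles 17.2 and 165 kb) over the 4179 regions that shared a chromosome or scaffold with another. A gap of at most 1 kb was found for 82 regions (1.94% of all), of at most 10 kb for 643 (15.2%) and of at most 100 kb for 2588 (61.1%). Among all 30246 merged regions the median gap was 9.19 kb, with 52.2% within 10 kb. Among the 2066 PT-only regions these were 124 kb and 11.8%. A larger set tends to have shorter gaps, but the order of sets by gap did not follow their size. The 1134 regions of all 4 HT lists and any PT list had a median gap of 18.6 kb, with 36.2% within 10 kb. The 1275 regions of 3 HT lists and no PT list had 167 kb and 8.94%. These values do not tell clustering from number. For the HT-only regions, the median gap was 109 kb on chromosomes 1 to 5, 103 kb on 6 to 10, 41.7 kb on 11 to 33, 20.2 kb on Z and 10.2 kb on scaffolds. The percent within 10 kb of another was 7.82 on chromosomes 1 to 5 and 26.7 on Z. Gaps shorten where regions are denser, so these values restate the density in part. The 308 scaffold regions sat on 79 scaffolds, with 52 of them on a single scaffold and 55 scaffolds holding 1 each.

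**Figure D2:**
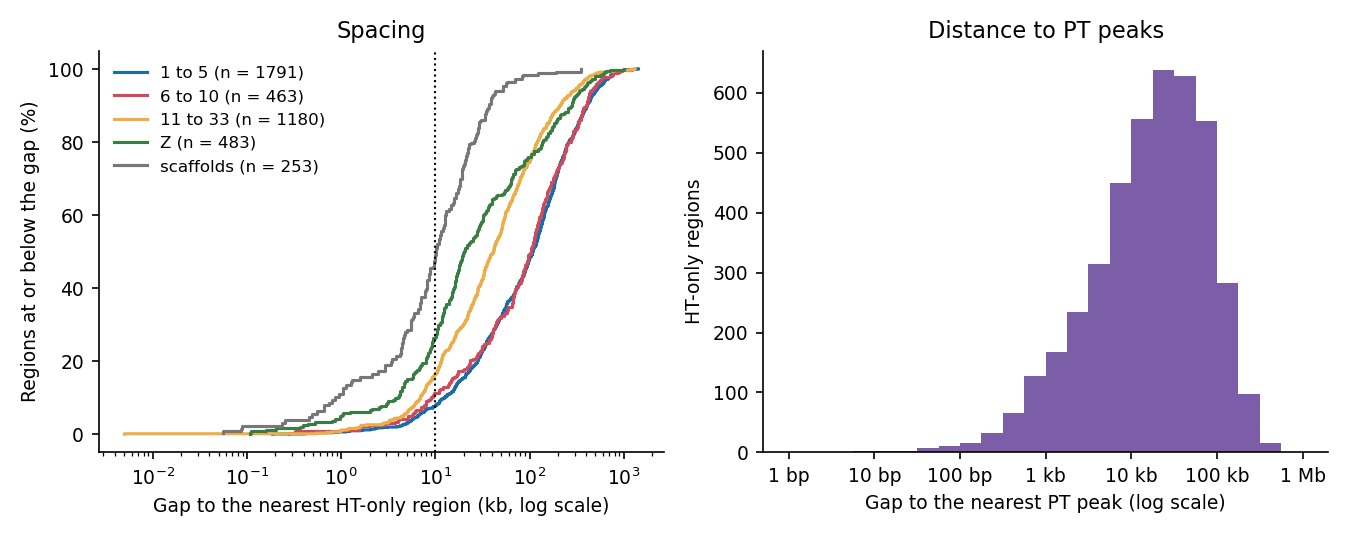
Left, the percent of HT-only regions whose gap to the nearest other HT-only region is at or below the value on the x axis (kb, log scale), per chromosome class, with 10 kb dotted. Right, the number of HT-only regions by gap to the nearest PT peak (log scale). The median gaps on the left run from 10.2 kb on scaffolds to 109 kb on chromosomes 1 to 5, and on the right the median is 19.8 kb.

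When members no more than 10 kb apart were joined into runs, 234 runs of 2 or more held 519 regions, or 13.2% of the 3926 on chromosomes. Most were pairs, 193 in all. There were 32 runs of 3, 8 runs of 4 and 1 run of 5. The 8 runs of 4 comprised 3 on Z and 5 on chromosomes 11 to 33. The fullest run, with 5 regions, was chrZ:76833601-76863894, over 30.3 kb, and 2 regions with PT peaks lay between its members. Its first region, chrZ:76833601-76834193, scored 93.65, 90.64, 84.99 and 91.88 in HT lists 1 to 4. Another of its regions, chrZ:76853857-76854923, scored 41.85, 66.78, 65 and 45.94. Scores thus differed within the run, with the first higher than the other in all 4 lists.

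The tightest run of 4 was chr33:4371618-4383027, over 11.4 kb with no PT region inside, and 3 of its regions had the same ends in all HT lists. Its members were 246, 277, 344 and 591 bp wide. The runs chrZ:80722614-80740718 and chrZ:75020137-75039235 spanned 18.1 and 19.1 kb, and none of their regions had the same ends in all 4 lists. More runs lay on chromosome 33, chr33:1613791-1634229 and chr33:4550355-4573579, and 1 each on chromosome 28, chr28:137231-158367, and chromosome 27, chr27:5356226-5378348. In the chromosome 27 run the mean score percentile went from 10.8 to 70.7. The percentile is the rank of a peak's score within its list, from the lowest up, as a percent of the list's peaks, with tied peaks given their mean rank. It was taken for the highest peak of the region and averaged over the 4 HT lists.

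Neighbouring HT-only regions on chromosomes differed in rank by similar amounts whatever their gap. Pairs on scaffolds were not counted here. The median difference in mean percentile was 20.6 points for the 27 neighbour pairs up to 1 kb apart and 21.2 points for 258 pairs from 1 to 10 kb apart. It was 21.2 points for 1349 pairs from 10 to 100 kb and 23.0 points for 2258 pairs farther apart.

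A few neighbours had exactly the same width. Of 689 neighbouring pairs up to 20 kb apart, 5 did. One was chr28:146732-148615 with chr28:156484-158367, each 1884 bp wide and 9752 bp apart from start to start. Another was chrZ:68151639-68152446 with chrZ:68171619-68172426, each 808 bp wide and 19980 bp apart. On W, chrW:369379-370117 and chrW:373119-373857 were both 739 bp wide. The remaining pairs were 425 bp wide on chromosome 3 and 563 bp wide on a scaffold. Whether these neighbours share sequence was not tested.

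PT peaks lay close to some HT-only regions. The nearest PT peak was a median of 19.8 kb away (quartiles 6.26 and 51.0 kb), within 10 kb for 1436 regions (33.9%), within 1 kb for 269 (6.35%) and within 100 bp for 28 (0.661%). A further 29 regions lay on sequences with no PT peak at all. For PT-only regions, the nearest HT peak was a median of 11.9 kb away, within 10 kb for 44.6% and within 1 kb for 9.24%. HT lists hold more peaks than PT lists, so these distances are not directly comparable. At the edge of the rule, chr4:88543493-88543804 was 1 bp from a PT peak, with scores of 63.04, 64.68, 66.09 and 62.78 in HT lists 1 to 4. Others were 2 bp (chr5:15146202-15146872), 6 bp (chr10:11600627-11601147), 7 bp (chr12:35093-35407 and chr6:31869923-31870476) and 10 bp (chr24:6468701-6469608) away. The chromosome 12 region had scores of 98.49, 100.79, 102.78 and 98.13, at a mean percentile of 93.4. These scores also occurred together in other HT-only regions, as did those of the chromosome 4 region.

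Just outside the rule, 1275 regions were in 3 of the 4 HT lists and no PT list, and 206 were in all 4 HT lists and 1 PT list. The first had a median width of 534 bp, beside 527 bp for the HT-only regions, and a median percentile of 36.9 in the HT lists that held them, beside 54.7. The second were 836.5 bp wide at a percentile of 68.1. Among regions missing from 1 HT list, HT list 4 was the one lacking in 403, list 2 in 353, list 1 in 299 and list 3 in 220. The longer the list, the more of these regions it lacked, since list 4 was the longest and list 3 the shortest. The PT list that held the region was list 4 in 71 cases, list 3 in 59, list 1 in 56 and list 2 in 20. Its peak there ranked low in its own list, at median percentiles of 16.3 to 31.5.

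HT-only regions filled the middle and upper parts of each HT list rather than its top. Each list was divided into 10 equal parts by score. In the lowest part, 23.4 ± 2.79% of an HT list's peaks were in HT-only regions (SD, n = 4 lists). The share was 43.2 ± 4.98% in part 5, 54.0 ± 5.32% in part 8 and 54.3 ± 3.29% in part 9. It was 35.7 ± 0.799% in the highest part, with 34.6% to 36.4% in the single lists. There, 50.1 ± 3.46% of peaks lay in regions that all 4 HT lists and at least 1 PT list held, against 2.66 ± 0.479% in the lowest part. The rule leaves such regions out, so the lower HT-only share in the highest part is linked to the rule. Peaks of one HT list alone made up 34.04 ± 9.10% of the lowest and 5.53 ± 3.82% of the highest part, and they were more frequent in lists 2 and 4 than in lists 1 and 3 throughout.

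**Figure D3:**
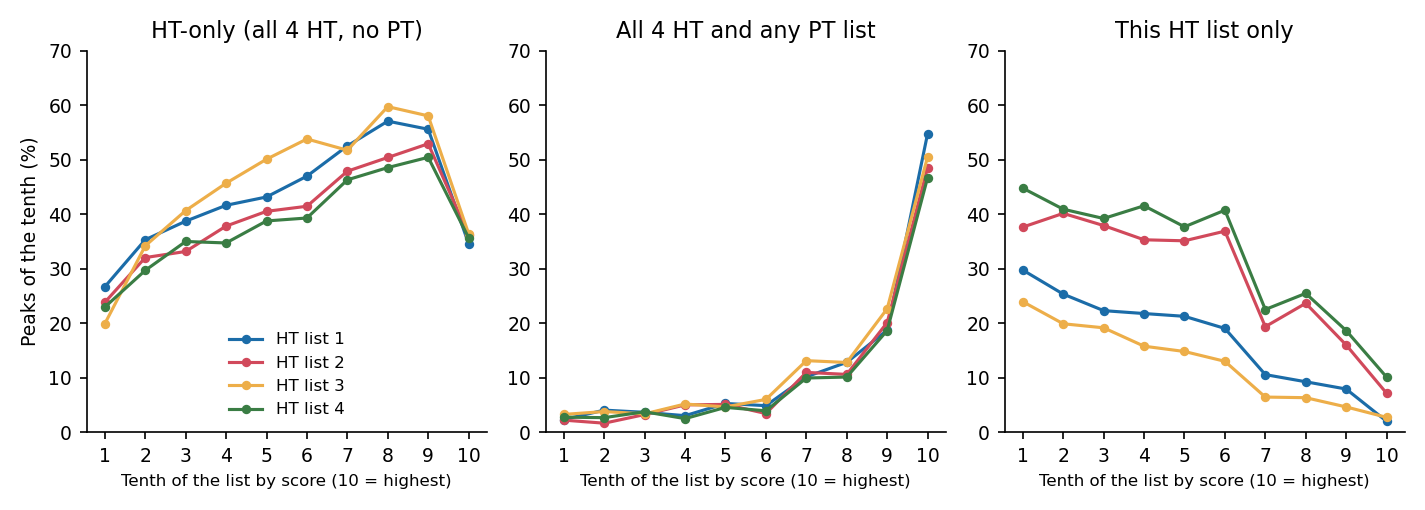
Percent of each HT list's peaks, in 10 equal parts of the list in order of score, that lay in HT-only regions (left), in regions of all 4 HT lists and any PT list (middle) or in regions of that HT list alone (right). Each line is 1 list. The left curves climb to 54.3% on average in part 9 and drop to 35.7% in the highest, where the middle curves reach 50.1%.

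The best-placed HT-only peak ranked 62nd in HT lists 1 and 2, 65th in list 3 and 68th in list 4. In each of the 4 lists the higher places all belonged to regions outside the HT-only set. Since regions with a PT peak are left out, these best places are linked to the rule too. Scores are those of the authors' caller on an unstated scale, and within HT-only regions they ran from 40.02 to 370.05, while every HT list reached 3100 elsewhere. The median score of HT-only peaks was 53.1 ± 1.31 (SD, n = 4 lists), and that of the other peaks 49.9 ± 0.357. The median percentile was 56.4 ± 1.09. Over 90 in every HT list stood 176 regions, and over 50 in every list 1713. Only 10 stood in the lowest 10% of every list.

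The leading region of each chromosome class, by mean percentile, is a single case and does not describe its class. On chromosomes 1 to 5 it was chr2:14507538-14508015, 478 bp wide, with scores of 355.03, 370.05, 315.34 and 282.34 in HT lists 1 to 4. On chromosomes 11 to 33 it was chr25:1984966-1986868, 1903 bp wide, with 234.18, 243.57, 223.88 and 259.76. On chromosomes 6 to 10 it was chr6:517671-518928, 1258 bp wide, with 164.94, 196.54, 177.3 and 174.57. All of these values lie far above the median HT-only score of their lists. The second-ranked regions were closer in width, at 472 bp on chromosomes 1 to 5, 424 bp on 6 to 10 and 536 bp on 11 to 33. Median widths of all HT-only regions in these classes were 517, 506 and 526 bp. On Z, chrZ:28502976-28503211 was only 236 bp wide and scored 210.84, 228.28, 245.03 and 152.46, lowest in list 4. Its percentiles in the 4 lists ranged over 0.967 points. The wider chrZ:75802289-75803886, of 1598 bp, scored 182.64, 184.59, 209.78 and 198.21, with a range of 0.405 points.

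Rank was steady across lists in some regions and not in others. The range of percentile over the 4 HT lists had a median of 18.9 points (quartiles 7.11 and 36.6). It was under 5 points in 634 regions (14.97%) and over 50 points in 517 (12.2%). Low scores lie close together, with parts 1 to 6 of HT list 1 running from 40.01 to 53.88. A small difference in score can thus be a large range there. In chr5:15146202-15146872, scores of 41.76 to 50.59 gave a range of 39.2 points. The widest range, 93.2 points, was in chr13:14975774-14976435, with scores of 109.09, 69.53, 88.92 and 40.47. In chr12:7547856-7548448 the scores were 137.35, 113.63, 115.8 and 41.17. In both, list 4 was lowest, in score and in percentile. In chr1:152179069-152179734 they were 108.13, 42.61, 113.48 and 41.04, so lists 1 and 3 stood high and lists 2 and 4 low. In chr27:3104296-3105141 they were 40.22, 48.25, 41.59 and 79.69, so list 4 stood highest.

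Scores of many HT-only peaks went with width. In each HT list, peaks of the same width often had exactly the same score, to 2 decimals. At least 3 peaks of a list shared width and score for 36.5% of the HT-only peaks of list 1, 36.7% of list 2, 37.5% of list 3 and 37.5% of list 4. Over all peaks of these lists the shares were 36.4%, 37.5%, 34.9% and 40.5%, so this is not particular to HT-only peaks. Among HT-only peaks over 400 and up to 600 bp wide the share was 47.7% to 49.4%, and over 600 bp it was 0%. The commonest score for a width, taken over all peaks of a list, fell with width. In HT list 1 it was 86.25 at 250 bp (22 of 44 peaks), 74.42 at 300 bp (7 of 17) and 63.04 at 340 bp (5 of 16). It was 52.16 at 380 bp (8 of 18), 50.8 at 420 bp (10 of 21), 45.99 at 500 bp (7 of 22) and 41.98 at 580 bp (8 of 23). Many peaks of a width thus had other scores.

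The other lists had the same steps at slightly shifted scores. At 250 bp the commonest score was 88.33 in HT list 2, 90.12 in list 3 and 85.93 in list 4, and at 580 bp it was 43.35, 44.53 and 41.76. The step order of the lists, 3 above 2 above 1 above 4, held at both widths and is the reverse of their order in length except for lists 1 and 2. Such recurring scores were rarer in peaks of regions that all 4 HT lists and a PT list held, 5.28 ± 0.284% (SD, n = 4 lists), and more frequent in peaks of a single HT list, 55.1 ± 4.43%. These sets differ in width, and no peak over 600 bp had such a score. At 261 to 400 bp the shares were 14.8% to 18.75% and 35.0% to 53.4%, beside 35.9% to 39.1% in HT-only peaks. Over 400 and up to 600 bp they were 15.8% to 17.3% and 58.9% to 67.4%, beside 47.7% to 49.4%. Over whole lists recurring scores made up 34.9% to 40.5% in HT and 8.496% to 27.8% in PT. A longer list gives more chances for a shared width and score, so these shares compare sets within a list better than lists with each other.

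**Figure D4:**
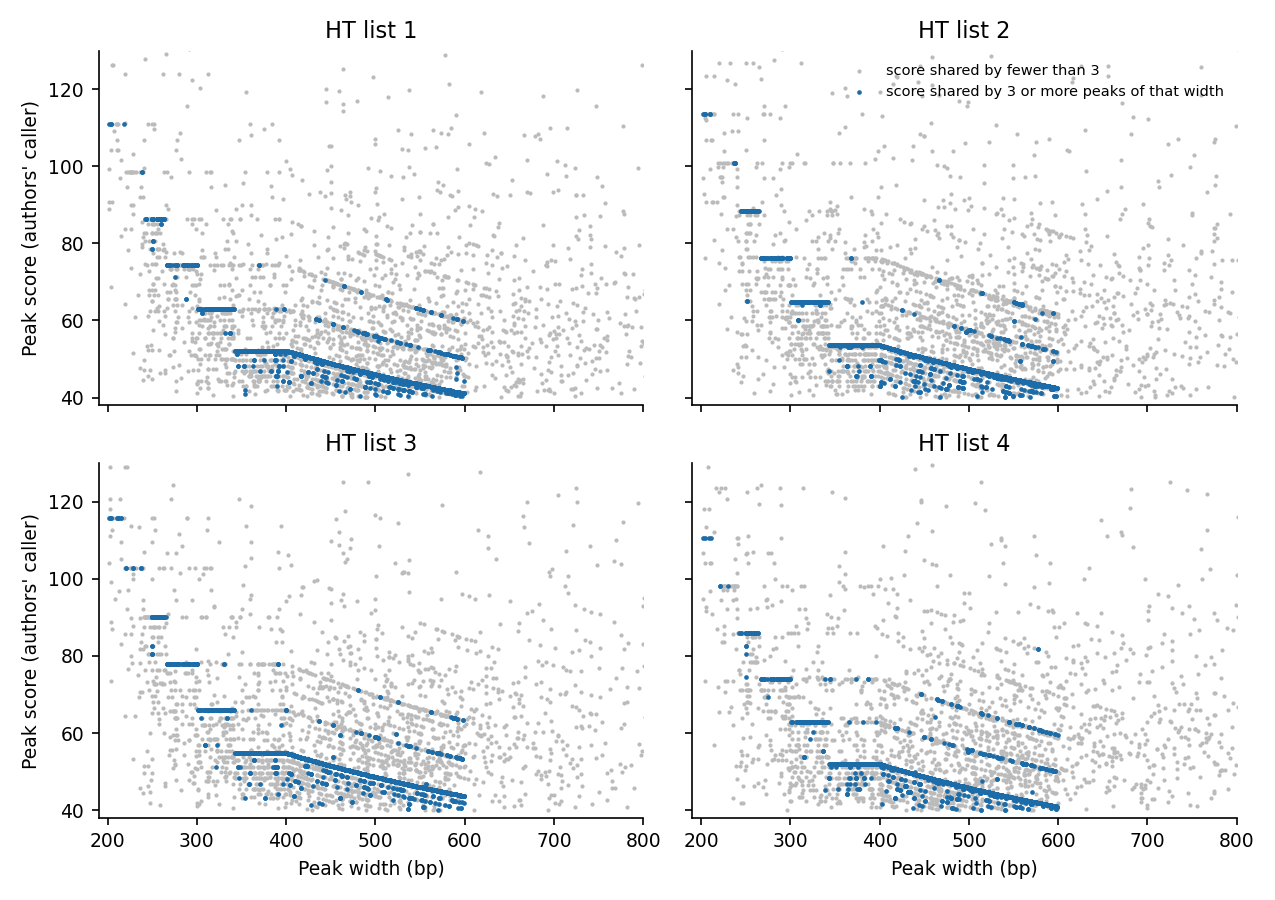
Score as the authors' caller gave it against width (bp) for the peaks of HT-only regions, 1 panel per HT list. Blue points share width and score with at least 2 other peaks of the list, grey points do not, and 1516 of 17000 peaks over 800 bp wide or above a score of 130 are not drawn. The blue points form flat steps, at 86.25 for 250 bp in list 1 and 85.93 in list 4, and a curve that falls to 41.98 and 41.76 at 580 bp.

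The recurring scores split the HT-only regions. In 740 regions (17.5%) the score recurred in all 4 HT lists and in 1905 (44.99%) in none. The first had a median percentile of 34.4 with a range of 6.38 points, and 88.1% of them had the same ends in all 4 lists. The second stood at 68.3 with a range of 20.6 points, and 33.7% had the same ends. Their positions differed too. Of the regions without recurring scores, 16.8% were on Z and 13.8% on scaffolds, against 6.76% and 1.08% of those with a recurring score in every list. The median gap to another HT-only region was 25.4 kb and 118 kb, respectively. Widths differed as well, with medians of 577 and 512 bp. No peak over 600 bp had a recurring score, and these contrasts were not limited to regions of similar width. Rank thus varied less between lists only where the score recurred in every list. Regions where it recurred in 1, 2 or 3 lists had median ranges of 24.2, 27.2 and 24.1 points. Since a recurring score goes with width and these ends mostly matched, the small range in the 4-list case is not a separate result.

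In width, the HT-only regions centred on 527 bp (quartiles 431 and 617.75), from 202 to 5277 bp. The middle class, 401 to 600 bp, held 2285 of them (54.0%). Single peaks had a median width of 484.75 ± 3.95 bp in HT-only regions and 507.5 ± 9.26 bp elsewhere in the same lists (SD, n = 4 lists). PT-only regions had a median of 503 bp, and regions held by all 4 HT lists and any PT list 1062 bp. Merging peaks of more lists can add bases to a region, and how much of that last difference comes with merging was not tested. HT-only regions were 23.7% of all merged regions 601 to 1000 bp wide, 19.1% of those over 1000 bp and 10.5% of those up to 260 bp. Over all widths the share was 14%. Wide regions are more readily met by every list, so these shares are linked to the rule.

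Score rank was high in the narrowest regions, lower at middle widths and higher again in wide ones. Where a score recurs with width, as described above, the percentile follows the width within a list, and what sets these scores was not tested. The median of the mean percentile was 90.3 for the 118 regions up to 260 bp, 65.0 for 702 regions of 261 to 400 bp, 44.97 for 401 to 600 bp, 60.6 for 848 regions of 601 to 1000 bp and 72.3 for the 281 regions over 1000 bp. The narrowest on chromosomes was chr5:11701718-11701919, 202 bp wide, with scores of 111.11, 113.63, 115.8 and 110.72 in HT lists 1 to 4. Exactly these scores recurred in chr1:121818671-121818873 (203 bp) and chr4:31356507-31356710 (204 bp). Of the 118 narrow regions, 13 shared a single combination of scores, 86.25, 88.33, 90.12 and 85.93, which are the 250 bp steps named above. In the narrow chr8:422628-422830, by contrast, the scores were 90.8, 92.77, 145.68 and 118.2.

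The 6 widest regions on chromosomes mostly ranked high, with mean percentiles of 68.5 to 97.8 in all but the widest. That one was chr10:1140472-1145445, 4974 bp wide, with scores of 49.4, 43.98, 45.32 and 44.31 in HT lists 1 to 4. It was followed by chrZ:34292483-34297428 (4946 bp) with 145.07, 161.1, 142.61 and 90.2. After it came chr8:386155-390732 (4578 bp), with 169.49, 151.96, 155.69 and 144.96. The last 2 rank in the highest 10% of every list, and the widest has a mean percentile of 26.2 and at most 43.9 in a list.

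Peak ends often matched to the base. All 4 HT lists gave the same single peak in 2127 regions (50.2%), and 3 lists did so in 1107 (26.1%). In 239 regions (5.64%) the lists formed pairs of 2 and 2, in 570 (13.5%) only 2 lists matched and in 191 (4.51%) no 2 single peaks did. Lists with more than 1 peak in a region count as unmatched here; when each peak was compared, 175 regions were without a match. Ends were compared in HT-only regions alone, so whether these shares are particular to them is not known. Whether the lists share DNA fragments was not tested.

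Matching fell with width. All 4 lists agreed in 82.2% of regions up to 260 bp, 74.2% at 261 to 400 bp, 60.6% at 401 to 600 bp, 10.8% at 601 to 1000 bp and 11.4% above. A region also becomes wider when ends disagree, since it spans all its peaks. Rank differed between these sets of regions. The median percentile was 45.4 where all 4 lists matched, 58.8 with 3 lists, 67.5 with 2 lists and 67.5 with none. On scaffolds 31.8% of HT-only regions had the same ends in all 4 lists, on Z 36.6%, on chromosomes 11 to 33 50.3% and on chromosomes 1 to 5 55.2%.

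**Figure D5:**
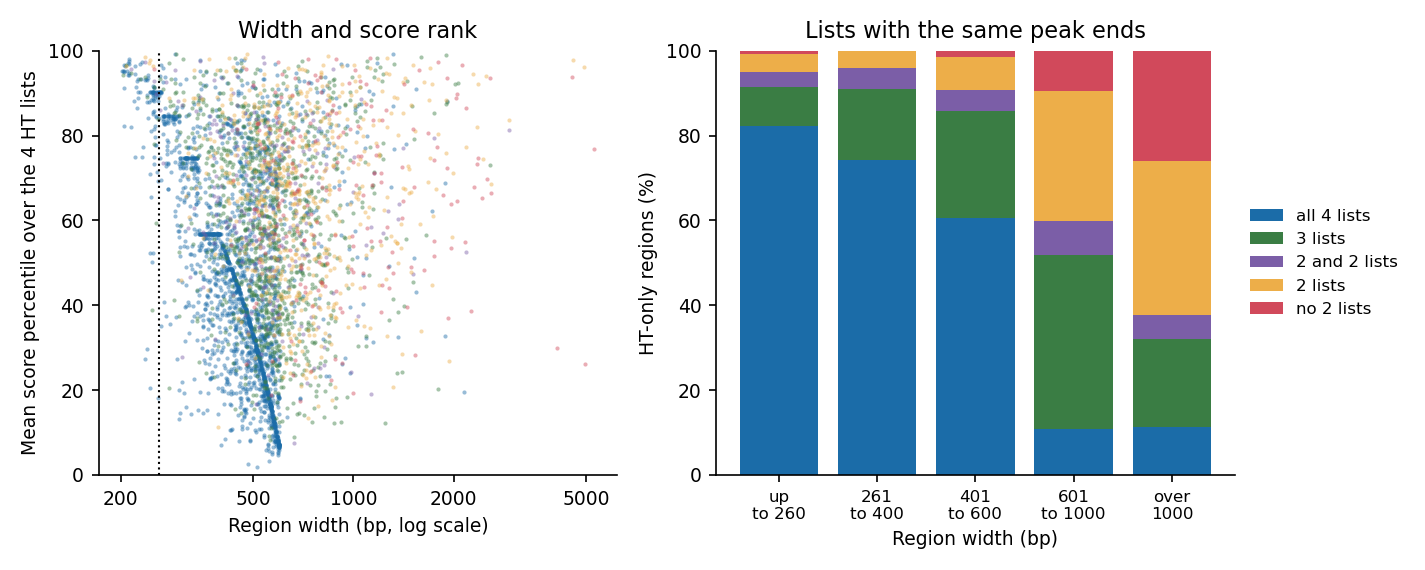
Left, region width (bp, log scale) against the mean score percentile over the 4 HT lists, each point an HT-only region coloured by how many HT lists gave the same single-peak ends, with 260 bp dotted. Right, the share of regions by that number in 5 width classes. Regions with the same ends in all lists (blue) line up on steps and a falling curve at the left, and their share goes from 82.2% up to 260 bp to 10.8% at 601 to 1000 bp.

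Lists 1 and 3 were the most alike. Their peaks had both ends in common in 77.2% of the HT-only regions where each had 1 peak (3251 of 4211). The other pairs of lists ranged from 62.9% (lists 1 and 4) to 69.7% (lists 2 and 3). One end alone matched in 19.5% to 30.2% of regions per pair, and neither in 3.28% to 6.86%. Where starts differed, they did so by a median of 95 to 105 bp. Where 3 lists matched and 1 did not, the odd list was list 4 in 432 regions, list 2 in 305, list 1 in 244 and list 3 in 126. The odd peak was the wider one in 389, 256, 207 and 91 of them.

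Even with the same ends, lists mostly gave different scores. Scores were not scaled between lists, and their steps differ, so this does not measure disagreement. By rank, regions with the same ends in all 4 lists varied least. Their median range was 10.6 points, against 25.2 to 31.5 points for the other patterns of matching. Of the 2127 regions with the same ends in all 4 lists, 1698 had 4 different scores, and 3 had a single score throughout. One of these 3 was chr27:5377829-5378348, at 42.57 in each list. The highest-ranked region with the same ends was chr2:138985407-138985617, 211 bp wide, with scores of 164.79, 168.19, 171.12 and 164.26. The wider chrZ:76081878-76082338 (461 bp) scored 143.79, 152.11, 162.39 and 156.77. After it came chr6:20694555-20694766 (212 bp), with 137.35, 158.97, 171.12 and 136.89, and then chr20:1620743-1620974 (232 bp), with 137.35, 140.31, 142.86 and 136.89. The value 171.12 in list 3 thus occurred in both narrow regions on chromosomes 2 and 6. At 1176 bp, chr1:90772400-90773575 was the widest of the top 8, with 143.04, 149.43, 131.65 and 121.19.

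Most regions had a common core. In 4196 regions (99.1%) every HT list had a single peak, and the bases covered by all 4 lists had a median of 456 bp. They made up less than 50% of the region in 257 of these (6.12%), and in 4 there was no base that all lists covered, although each touched the region. The 6 regions farthest from any other HT-only region, 1.25 to 2.85 Mb away, all had the same ends in all 4 lists. The first was chrW:6731795-6732271, with scores of 64.9, 58.38, 77.89 and 67.63. Next was chr1:44745871-44746384, 1.43 Mb from another, with 41.43, 46.63, 46.08 and 41.43.

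At the outer 1 Mb of chromosomes, counted from the first base and back from the last peak, lay 513 of the 3926 HT-only regions on chromosomes (13.1%), beside 10.3% of all regions and 29.4% of those in all 8 lists. Small chromosomes consist largely of outer parts. On chromosomes 1 to 5 alone the share was 4.63%, beside 4.08% of all regions.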

How the data were processed

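CUT&Tag peak lists of 8 samples, 4 HT and 4 PT, were analysed. Groups and replicate numbers came from the titles. Per the submitters' processing notes, cutadapt 1.9.2, Bowtie2 2.2.4 and galGal6 were used. Peak names begin with MACS. Its version, its settings, duplicate handling, controls and pooling are unstated in the sources used here. The deposited score of each peak, the authors' caller's own value, has no stated scale and is at least 40. It was ranked within each list. Scores of different lists are set side by side as deposited, with no scaling between lists.

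Starts were raised by 1 base. Peaks that overlapped or touched were merged, and a list held a region with at least 1 bp. Identical ends required a single peak per list and both ends equal. Percentiles used mean ranks. HT was not tested against PT, because the rule used that contrast. Dixon's test looked for an HT list apart from the other HT lists. Merging, counting, ends and gaps were tested on simulated data. Wilson 95% intervals served to judge moved shares and cover counting error only. Alternatives are given in the closing section.

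Named regions, on chromosomes only, were the 8 fullest runs, the 8 highest-ranked with the same ends in all HT lists, the 6 widest, narrowest, most isolated, most variable in rank and nearest to a PT peak, and the 2 highest-ranked of each chromosome class; the text gives those that show a feature. Regions with equal widths, with 1 score in all lists or on W, and the windows, stretches and recurring scores, were chosen after their values were seen. The rule for the HT-only regions and the measures were chosen with earlier results of these data known. Python 3.11.15, numpy 2.4.6, pandas 2.3.3, scipy 1.17.1 and matplotlib 3.10.9 were used.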

Additional observations from a re-analysis of the deposited data

Results flagged for a closer look

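HT list 3 had 185 HT-only regions in the lowest 10% of its scores, while the other HT lists had 252 to 259. The gap to the nearest list was 0.905 of the range, above Dixon's critical value of 0.829 for 4 values. Dixon's test was run on 8 measures per list, and chance gives about 1 flag in 20 groups. List 3 is the shortest HT list, and the flagged measure is a count. As a share of the lowest of 10 parts by score, HT-only peaks made up 19.9% in list 3. They made up 23.0% in list 4, 23.9% in list 2 and 26.7% in list 1.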

How the results depend on the processing

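No paired analysis was possible because no result comes from a test between groups. Of 102 alternative values, 68 stayed within 1.5 times for the count of regions, within 1 SD between lists for width and percentile, or within the Wilson interval for shares. For width this SD, 4.243 bp, was between the lists' median widths of single peaks, while the width judged was that of merged regions. The other alternative values follow, and their causes were not tested unless the setting itself shows them. With the highest-scoring 50% of each list, which has fewer peaks, there were 1921 HT-only regions, with a median width of 518 bp, a percentile of 80.003 in the whole lists, 39.9% with the same ends, 12.96% within 10 kb of another and 26.5% on chromosomes 11 to 33. With each list held to its 5120 highest-scoring peaks these were 1707 regions, 510 bp, 80.01, 40.7% and 10.8%. On chromosomes only, 13.2% were within 10 kb and 30.1% on chromosomes 11 to 33. Without Z and W the width was 521 bp, with 52.0% with the same ends, 13.6% within 10 kb and 31.5% on chromosomes 11 to 33. Merging up to 500 bp apart gave 13.5% within 10 kb. A cover of 50% of the region gave 521 bp and 52.7% with the same ends. When each list was left out in turn, the width ran from 513 to 528 bp, the percentile from 55.3 to 57.9, the share with the same ends from 49.8% to 59.5% and the share within 10 kb from 15.4% to 16.5%. The same ends then had to match in 3 HT lists where an HT list was left out. Chosen after seeing the data, a rule of no PT peak within 1 kb left 3965 regions and 13.2% within 10 kb, and lists without peaks up to 260 bp left 3991 regions, 534 bp and a percentile of 55.2. Depth is unknown, so what it limits cannot be stated.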
